A study of Mus musculus with 6 samples.

Results

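Hemidesmosome and laminin-332 genes are 9 genes whose products fasten basal keratinocytes to the basement membrane: Itga6, Itgb4, Itga3, Itgb1, Col17a1, Dst, Plec, Lama3 and Lamb3. They were chosen by symbol, from what their products do, with earlier results of these data known. All 9 were found among the 38924 genes of the count table and passed the filter on low counts that left 15525 genes. RNA was sequenced from CD49f-positive epidermal cells that had been sorted from mouse skin. The 3 K14-Cre+ libraries came from mice homozygous for a floxed Rnaseh2b allele that also carried Cre recombinase driven by the keratin 14 promoter, which is active in basal keratinocytes and hair follicles. The 3 K14-Cre- libraries came from mice with the same floxed alleles on both chromosomes and without Cre. CD49f is integrin alpha 6, the product of Itga6, so the sort itself was made on the product of a member. The labels give neither age nor sex, and nothing in them says whether a library is from 1 animal, so p-values measure the spread between these libraries, part of which may be technical.

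A hemidesmosome is a rivet-like junction at the base of a keratinocyte. Outside the cell, integrin alpha 6 beta 4 (Itga6 and Itgb4) and collagen XVII (Col17a1) bind laminin-332, a trimer whose alpha 3 and beta 3 chains come from Lama3 and Lamb3. Inside, plectin (Plec) and the epithelial form of dystonin (Dst) tie the integrin to keratin 5 and 14 filaments. Integrin alpha 3 beta 1 (Itga3 and Itgb1) binds the same laminin in focal contacts, which connect to actin. In humans, inherited loss of these proteins underlies several forms of epidermolysis bullosa, in which the skin blisters.

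None of the 9 genes passed the threshold between K14-Cre+ and K14-Cre- cells, and the gene nearest to it was Itgb4. It lay 1.42-fold higher in K14-Cre+ cells, with all 3 K14-Cre+ libraries above all 3 K14-Cre- libraries. Its partner Itga6 overlapped between the groups, as did the other 7 genes, and the Itga6 to Itgb4 ratio was lower in every K14-Cre+ library than in any K14-Cre- library. With TMM scaling, K14-Cre+ replicate 3 was the highest of the 6 libraries for 7 of the 9 genes, all but Lama3 and Itgb1. It was the lowest for Itgb1. The share of all genes that were highest in that library was not counted. By the quasi-likelihood test of edgeR, 0 of 9 members passed an adjusted p of 0.05, where 0.515% of all genes tested did. At an unadjusted p under 0.05 stood 1 of 9 members, against 18.8% of all genes, and 1 of 9 had groups that did not overlap, against 28.0% of all genes. The Wald test of DESeq2 called 1 member, where it called 5.46% of all genes, and limma-voom called 0, where it called 0.425%.

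Library totals ran from 22948779 to 31718094 counts. Values are CPM, each gene's counts scaled to a common library size with the TMM factors, and RPKM, which is CPM divided by the exon length in kilobases, where genes are compared with each other. K14-Cre+ replicate 3 stood apart from the other libraries. It had the lowest TMM factor, 0.885, against 0.975 to 1.06 in the others, and a lower factor raises every CPM of a library. How often this library ranked first for a gene therefore depends on that scaling. Its counts differed from those of K14-Cre+ replicates 1 and 2 by a chi-square per degree of freedom of 70.4 and 48.4, against 14.7 between those 2 and 9.11 to 14.1 within the K14-Cre- group. It was the only K14-Cre+ library with more Xist than Y-linked counts, as in a female, against 2 of 3 K14-Cre- libraries. Rnaseh2b, the targeted gene, had 172, 90 and 69 counts in K14-Cre+ replicates 1 to 3, against 543, 504 and 570 in K14-Cre- replicates 1 to 3, in the direction the labels give. Markers of basal keratinocytes were abundant, with Krt5 at 3632 ± 98.3 RPKM in K14-Cre+ and 3892 ± 347 RPKM in K14-Cre- cells (SD, n = 3 each). Markers of suprabasal keratinocytes were abundant as well, and Krt10 lay above Krt5 in both groups. Krt10 had 29418 ± 3854 RPKM in K14-Cre+ and 22832 ± 3006 RPKM in K14-Cre- cells (SD, n = 3 each). The sorted cells thus held RNA of both layers, and the part of suprabasal RNA in the levels of the 9 genes was not tested. In bulk RNA, fewer cells of a type and less RNA per cell cannot be told apart.

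Ordered by level per exon length over all 6 libraries, Col17a1 stood first at 227 RPKM (range 207 to 272), 4.60 times the next gene and above it in 6 of 6 libraries. Itgb1 (49.2), Lamb3 (47.6), Itgb4 (41.2), Plec (38.1) and Itga6 (35.4 RPKM) followed. Within that row neighbours were not separated in every library: Itgb1 was above Lamb3 in 3 of 6, Lamb3 above Itgb4 in 4, Itgb4 above Plec in 3 and Plec above Itga6 in 5. Itga6 was above Dst in 6 of 6 libraries. Dst (23.5) and Itga3 (23.4 RPKM) did not differ beyond their spread, with Dst higher in 3 of 6, and Lama3 was last at 18.5 RPKM, below Itga3 in 6 of 6. The length is the sum of all annotated exons of a gene, 37510 bases for Dst and 10343 for Lama3, so a gene with long exons used only in other tissues is given too low a level on this scale.

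The alpha 6 subunit gene is Itga6 (ENSMUSG00000027111, chromosome 2, 71745616 to 71858416, plus strand, 31 exon blocks; gene coordinates are on mm10). It had 322, 290 and 409 CPM in K14-Cre+ replicates 1, 2 and 3, against 291, 316 and 290 CPM in K14-Cre- replicates 1, 2 and 3. Replicate 3 of K14-Cre+ was the highest and the groups overlapped. The log2 fold change, K14-Cre+ minus K14-Cre-, was 0.19 (SE 0.13, edgeR adjusted p = 0.480), with a 95% interval of -0.13 to 0.50. Without K14-Cre+ replicate 3 it was 0.03, close to zero. The mRNA of the sorting marker was thus measured in cells already chosen for its protein.

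Itgb4 (ENSMUSG00000020758, chromosome 11, 115974709 to 116008412, plus strand, 41 exon blocks) encodes beta 4, the subunit whose long cytoplasmic tail binds plectin. It had 327, 307 and 383 CPM in K14-Cre+ replicates 1, 2 and 3, against 237, 246 and 235 CPM in K14-Cre- replicates 1, 2 and 3. All 3 K14-Cre+ libraries were above all 3 K14-Cre- libraries, as for 14.1% of all genes, with a gap between the groups (307 CPM in K14-Cre+ against 246 CPM in K14-Cre-) wider than the range within K14-Cre- and narrower than that within K14-Cre+, and K14-Cre+ replicate 3 was again the highest. The log2 fold change was 0.50 (SE 0.10, unadjusted p = 0.00145, edgeR adjusted p = 0.0865), with an unadjusted 95% interval of 0.27 to 0.74. Without K14-Cre+ replicate 3 the log2 fold change was 0.40 and the gene passed the threshold (edgeR adjusted p = 0.0302), where 2.65% of all genes did. With the sex of the animals as a covariate it was 0.53 (edgeR adjusted p = 0.0907), and by DESeq2 0.51 (adjusted p = 0.000582). Over the 13 alternatives the adjusted p ran from 0.000582 to 0.340, and the direction was the same in all of them. The antisense transcript B230344G16Rik covers 7.66% of its exon length and had a mean of 1.83 counts.

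Other cell types that express Itgb4 or stand near it in the skin were read from marker lists. The summed level of 5 melanocyte markers ran from 568 to 675 CPM in K14-Cre+ and from 319 to 368 CPM in K14-Cre- libraries. Of the melanocyte markers, 5 of 5 passed the threshold in edgeR, where 0.515% of all genes tested did. Schwann cells, the glia of skin nerves, carry integrin alpha 6 beta 4 as well, and Sox10 and Cdh19 are expressed by both Schwann cells and melanocytes. Sox10 had 22.7, 23.3 and 31.7 CPM in K14-Cre+ replicates 1, 2 and 3, against 14.7, 16.5 and 16.5 CPM in K14-Cre- replicates 1, 2 and 3 (log2 fold change 0.70, edgeR adjusted p = 0.0887). Cdh19 ran from 0.885 to 1.33 CPM in K14-Cre+ and from 0.321 to 0.739 CPM in K14-Cre- libraries (log2 fold change 1.31, edgeR adjusted p = 0.166). Both genes were higher in every K14-Cre+ library than in any K14-Cre- library, as for 14.1% of all genes. This was the direction of Itgb4, and neither gene passed the threshold. The summed level of 5 suprabasal markers ran from 102750 to 138220 CPM in K14-Cre+ and from 81700 to 103592 CPM in K14-Cre- libraries, and that of 4 hair follicle markers from 1332 to 1920 CPM in K14-Cre+ and from 2340 to 2411 CPM in K14-Cre- libraries. Endothelial markers, whose cells carry alpha 6 integrins, summed to 2.04 to 22.6 CPM in K14-Cre+ and 2.85 to 20.0 CPM in K14-Cre- libraries, with none at 0 throughout. Markers of T cells summed to 4.51 to 5.89 CPM in K14-Cre+ and 9.41 to 12.8 CPM in K14-Cre- libraries, and those of Langerhans and myeloid cells to 44.95 to 60.4 CPM in K14-Cre+ and 76.3 to 108 CPM in K14-Cre- libraries. The genes of that last list did not move together. Cd74 and H2-Aa, of antigen presentation, had log2 fold changes of -2.42 and -2.52 (edgeR adjusted p = 0.0572 and 0.0670) and the receptor gene Csf1r had -0.037. The lysozyme gene Lyz2 was the 1 gene of the list that passed, and it was higher, with 11.9 to 16.6 CPM in K14-Cre+ and 5.01 to 6.55 CPM in K14-Cre- libraries (log2 fold change 1.33, edgeR adjusted p = 0.0368). The part of these cell types in the Itgb4 difference was not tested.

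**Figure D1:**
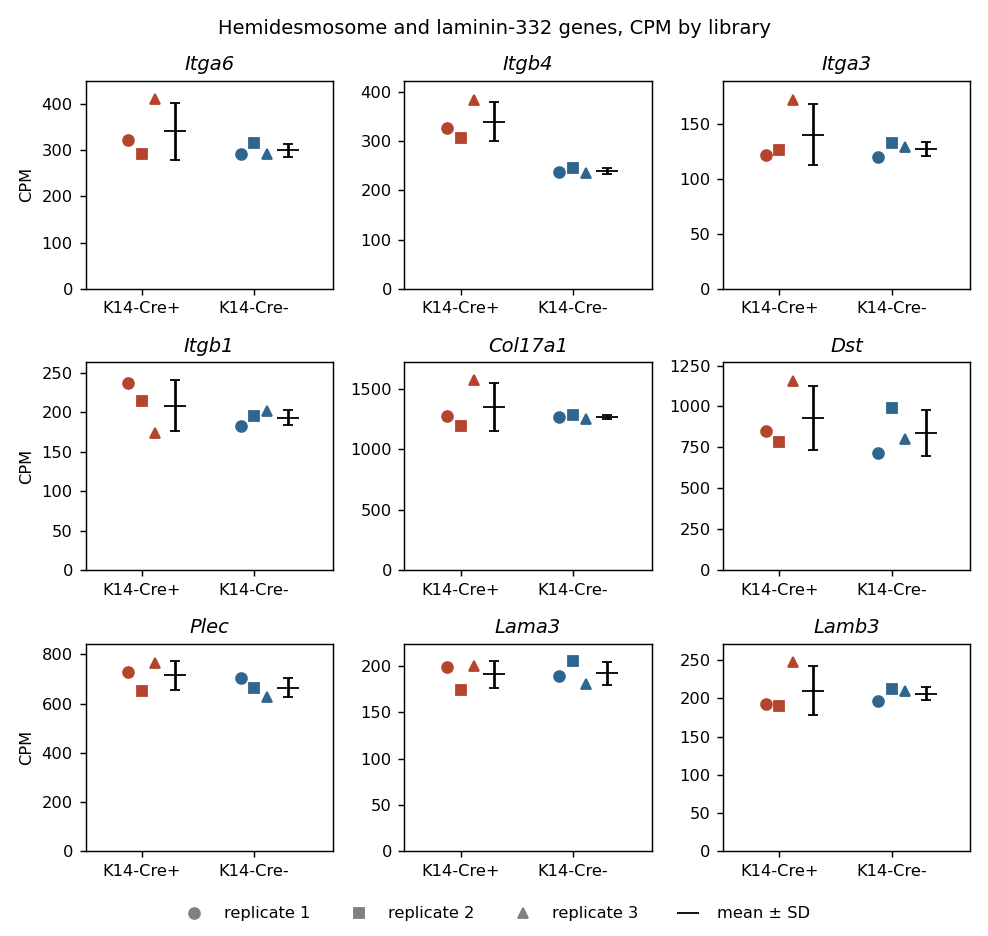
CPM of the 9 genes in each library, with K14-Cre+ on the left and K14-Cre- on the right of each panel, marker shapes for replicates 1 to 3, and the mean ± SD (n = 3) as bars. The groups are apart only for Itgb4 (307 to 383 CPM in K14-Cre+, 235 to 246 CPM in K14-Cre-), and K14-Cre+ replicate 3 (triangle) is the highest K14-Cre+ library in every panel except Itgb1.

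Itga3 and Itgb1 encode the subunits of the other laminin-332 receptor. Itga3 (ENSMUSG00000001507, chromosome 11, 95044474 to 95076801, minus strand) had 122, 126 and 172 CPM in K14-Cre+ replicates 1, 2 and 3, against 120, 132 and 129 CPM in K14-Cre- replicates 1, 2 and 3. Its groups overlapped, with K14-Cre+ replicate 3 alone above the rest. The log2 fold change was 0.14 (95% interval -0.18 to 0.47, edgeR adjusted p = 0.609), and its sign turned without that library (-0.034). Itgb1 (ENSMUSG00000025809, chromosome 8, 128685654 to 128733200, plus strand) encodes the beta 1 subunit, which also pairs with many other alpha subunits. It had 237, 214 and 174 CPM in K14-Cre+ replicates 1, 2 and 3, against 183, 196 and 202 CPM in K14-Cre- replicates 1, 2 and 3. Here K14-Cre+ replicate 3 was the lowest of all 6 libraries and K14-Cre+ replicates 1 and 2 were the highest. The log2 fold change was 0.11 (95% interval -0.18 to 0.39, edgeR adjusted p = 0.651), and it ran from 0.0061 without K14-Cre+ replicate 1 to 0.22 without K14-Cre+ replicate 3 (edgeR adjusted p = 0.173 for the highest value). It was 0.03 with sex as a covariate, so its size depended on the libraries and the model. Under total count scaling it was 0.0061, where the median of all genes also moved, from -0.0048 to -0.12. Fibroblasts also express Itgb1, and 6 fibroblast markers summed to 1368, 176 and 226 CPM in K14-Cre+ replicates 1, 2 and 3, against 196, 288 and 811 CPM in K14-Cre- replicates 1, 2 and 3. Their part in the Itgb1 values was not tested.

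Col17a1 (ENSMUSG00000025064, chromosome 19, 47646344 to 47692094, minus strand, 54 exon blocks) encodes the transmembrane collagen of the hemidesmosome. It had 1278, 1192 and 1571 CPM in K14-Cre+ replicates 1, 2 and 3, against 1270, 1282 and 1249 CPM in K14-Cre- replicates 1, 2 and 3. The K14-Cre- libraries were close together, the coefficient of variation being 14.7% in K14-Cre+ and 1.32% in K14-Cre-, while K14-Cre+ replicate 1 lay within their range and replicate 2 just under it. The log2 fold change was 0.09 (95% interval -0.19 to 0.37, edgeR adjusted p = 0.716), and its sign turned without K14-Cre+ replicate 3 (-0.037) and under total count scaling (-0.035).

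The plaque proteins are encoded by Dst and Plec, the 2 members with the longest exon sequence. Dst (ENSMUSG00000026131, chromosome 1, 33908225 to 34308652, plus strand, 106 exon blocks) had 851, 785 and 1153 CPM in K14-Cre+ replicates 1, 2 and 3, against 716, 989 and 803 CPM in K14-Cre- replicates 1, 2 and 3. It was the most variable member in both groups, with coefficients of variation of 21.1% in K14-Cre+ and 16.7% in K14-Cre-, and its groups overlapped. Its log2 fold change was 0.15 (95% interval -0.27 to 0.58, edgeR adjusted p = 0.673) and turned to -0.032 without K14-Cre+ replicate 3. Counts were made per gene, so the epithelial, muscle and neuronal forms of dystonin are summed. Plec (ENSMUSG00000022565, chromosome 15, 76170974 to 76232574, minus strand, 46 exon blocks) had 727, 652 and 766 CPM in K14-Cre+ replicates 1, 2 and 3, against 705, 663 and 626 CPM in K14-Cre- replicates 1, 2 and 3. Its groups overlapped, and the log2 fold change was 0.11 (95% interval -0.12 to 0.33, edgeR adjusted p = 0.581), with the sign turned under total count scaling (-0.011). Genes with over 10 kb of exons moved with the library as a class: their median deviation from the mean of all 6 libraries was 0.08, -0.05 and 0.03 log2 units in K14-Cre+ replicates 1, 2 and 3, against -0.02, -0.01 and -0.08 in K14-Cre- replicates 1, 2 and 3 (732 genes). Muscle cells also express plectin and dystonin, and 4 muscle markers summed to 7.79 to 24.7 CPM in K14-Cre+ and 6.14 to 51.5 CPM in K14-Cre- libraries. The part of length and of muscle RNA in the values of Dst and Plec was not tested.

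Lama3 (ENSMUSG00000024421, chromosome 18) and Lamb3 (ENSMUSG00000026639, chromosome 1, 193301957 to 193343878, plus strand, 26 exon blocks) encode the laminin chains that keratinocytes secrete into the basement membrane. Lama3 had 199, 175 and 201 CPM in K14-Cre+ replicates 1, 2 and 3, against 190, 206 and 181 CPM in K14-Cre- replicates 1, 2 and 3, and no library stood out. Its log2 fold change was -0.0067 (edgeR adjusted p = 0.978), and the 95% interval of -0.22 to 0.20 was the narrowest among the 9 genes; the sign turned with DESeq2 size factors (0.0018). Lamb3 had 192, 190 and 248 CPM in K14-Cre+ replicates 1, 2 and 3, against 196, 213 and 209 CPM in K14-Cre- replicates 1, 2 and 3. In K14-Cre+ replicates 1 and 2 it was below every K14-Cre- library and in replicate 3 above every one. Its log2 fold change was 0.03 (95% interval -0.25 to 0.30, edgeR adjusted p = 0.918), and it turned to -0.11 without K14-Cre+ replicate 3.

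**Figure D2:**
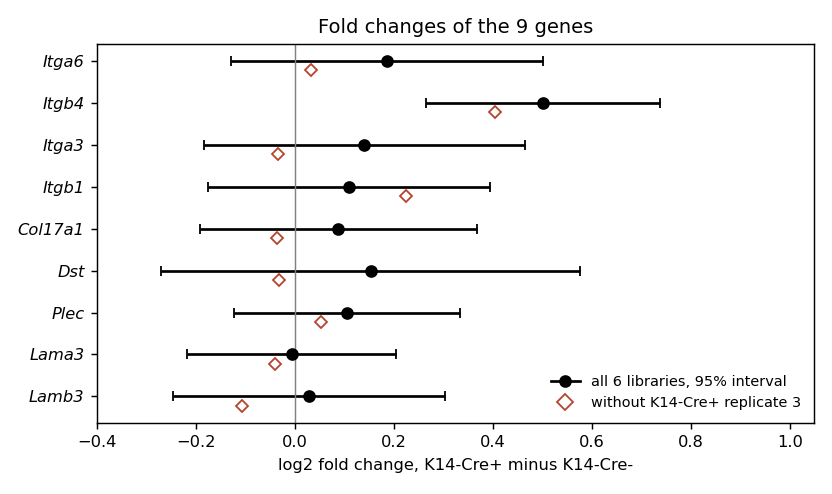
Log2 fold change of each gene, K14-Cre+ minus K14-Cre-, with its 95% interval from edgeR over all 6 libraries (filled circles) and its value without K14-Cre+ replicate 3 (open diamonds). The interval leaves out zero for Itgb4 alone (0.27 to 0.74, unadjusted), and the diamonds of Itga3, Col17a1, Dst and Lamb3 lie on the other side of zero.

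Over the 9 genes the median log2 fold change was 0.11, against -0.0048 over all genes tested. Of the members 8 of 9 were positive, and of all genes tested 7608 of 15525 were. Under total count scaling the median of all genes moved to -0.12 and that of the 9 genes to 0.0061, with 5 of 9 positive, so relative to all genes the members' median was similar under both scalings. Without K14-Cre+ replicate 3 the members' median was -0.032 and 4 of 9 were positive. Mean deviations of the 9 genes from their own averages were 0.03, -0.07 and 0.24 log2 units in K14-Cre+ replicates 1, 2 and 3, against -0.12, 0.00064 and -0.09 in K14-Cre- replicates 1, 2 and 3. In K14-Cre+ replicate 3, 8 of 9 genes were above their average, against 5 and 2 in K14-Cre+ replicates 1 and 2 and 1, 3 and 2 in the K14-Cre- libraries. The share of all genes above their average was not counted. Median deviations of all genes tested in K14-Cre+ replicate 3 ran from -0.037 (under 2 kb of exons) to 0.035 (over 10 kb).

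Among the 36 pairs of members, likeness was measured as the root mean square difference of their centred log2 profiles over the 6 libraries, where 0 means the same profile. The closest pair was Col17a1 and Lamb3 (0.053), and the most distant was Itgb1 and Dst (0.31). Itgb1 was in each of the 4 most distant pairs, the others being with Itgb4, its own partner Itga3 and Itga6. Among the 5 genes outside the set that were closest to Itga6 were Chkb (0.026), Rnf170 (0.027), Mcoln1 (0.037) and Tsc1 (0.041), and 6.30% of the 9094 candidate genes lay within 0.1 of it. These 4 were chosen for likeness to Itga6 over the same 6 libraries, so a pattern near that of Itga6 follows from the choice. Their highest level was in K14-Cre+ replicate 3, with deviations of 0.31 to 0.38. Their K14-Cre+ minus K14-Cre- log2 fold changes ran from 0.16 to 0.20 (edgeR adjusted p from 0.433 to 0.574).

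**Figure D3:**
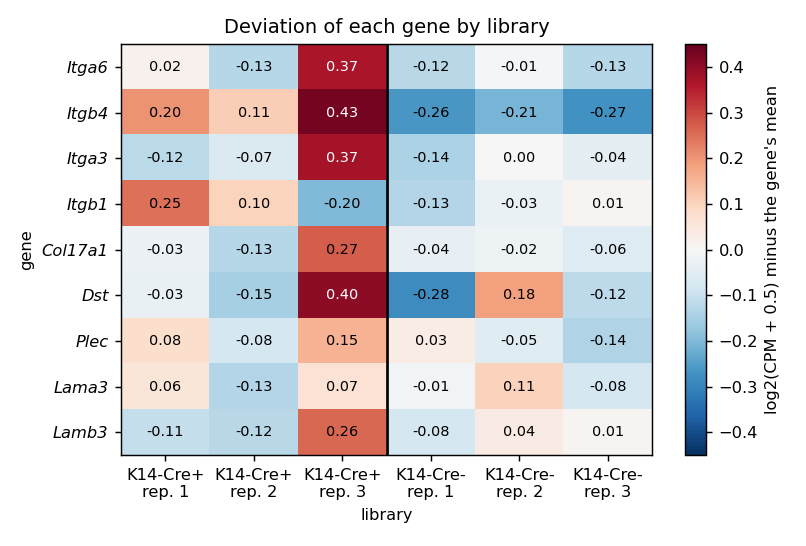
Heat map of log2(CPM + 0.5) minus each gene's mean over the 6 libraries, genes in rows and libraries in columns, with the K14-Cre+ libraries left of the line and K14-Cre- right of it. K14-Cre+ replicate 3 is red for every gene except Itgb1 (-0.20), and the Itgb4 row alone is red in all 3 K14-Cre+ and blue in all 3 K14-Cre- libraries.

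The 5 members with an entry in the RefSeq promoter table (GRCm38.p6, the patched form of the assembly that mm10 names) were Itga3, Itgb1, Col17a1, Dst and Lamb3. Windows run from 250 bases before the start of transcription to 50 after it. Shown here are the members of the closest pair, Col17a1 (chr19:47691993-47692292, minus strand) and Lamb3 (chr1:193301744-193302043, plus strand, the first of its 2 starts), and Itgb1 (chr8:128685404-128685703, plus strand), which was in the most distant pairs. Capitals mark matches on either strand to TGANTCA (AP-1), GGGCGG (GC box), CCAAT or TATAAA.
Col17a1: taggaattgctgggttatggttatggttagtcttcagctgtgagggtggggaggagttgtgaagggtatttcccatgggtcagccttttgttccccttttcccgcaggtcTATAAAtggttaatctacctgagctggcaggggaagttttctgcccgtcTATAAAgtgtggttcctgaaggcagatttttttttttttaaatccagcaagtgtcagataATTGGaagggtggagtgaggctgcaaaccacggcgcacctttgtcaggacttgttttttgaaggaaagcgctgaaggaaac
Lamb3: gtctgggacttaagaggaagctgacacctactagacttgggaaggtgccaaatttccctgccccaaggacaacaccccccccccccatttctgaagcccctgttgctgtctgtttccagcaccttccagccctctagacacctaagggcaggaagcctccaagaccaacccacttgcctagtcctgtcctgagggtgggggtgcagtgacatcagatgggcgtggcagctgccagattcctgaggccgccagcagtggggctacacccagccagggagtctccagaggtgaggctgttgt
Itgb1: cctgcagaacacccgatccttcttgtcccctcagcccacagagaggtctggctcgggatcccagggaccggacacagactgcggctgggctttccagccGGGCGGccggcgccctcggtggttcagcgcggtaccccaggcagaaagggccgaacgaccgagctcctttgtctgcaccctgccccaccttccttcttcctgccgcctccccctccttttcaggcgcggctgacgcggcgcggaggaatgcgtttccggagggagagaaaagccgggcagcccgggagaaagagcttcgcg

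The pair with like profiles had windows of 46.3% (Col17a1) and 59.3% (Lamb3) G and C, against 67.3% for Itgb1. Col17a1 held 2 TATAAA matches and 1 CCAAT match, Itgb1 held 1 GC box, and the window of Lamb3 held none of the 4 motifs, so the closest pair shared no motif searched. The first Itga3 window held 3 GC boxes (66.7% G and C) and the first Dst window 4 (70.3%), and 1 AP-1 match was found, at the second start of Itga3. Over all 32851 promoter windows, 7.81% held the AP-1 motif, 35.7% the GC box, 37.4% CCAAT and 13.6% TATAAA. A match of letters is a description and not a site of binding.

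Ratios between genes whose products work together do not depend on the scaling of the library. Per exon length, the Itga6 to Itgb4 ratio was 0.765, 0.736 and 0.830 in K14-Cre+ replicates 1, 2 and 3, against 0.956, 0.999 and 0.959 in K14-Cre- replicates 1, 2 and 3. It did not overlap between the groups, with a mean of 0.777 ± 0.0481 in K14-Cre+ and 0.971 ± 0.0240 in K14-Cre- (SD, n = 3 each). The difference in mean log2 ratio was -0.32 (two-sided exact permutation p = 0.1, the smallest that 3 against 3 libraries allow, adjusted p = 0.4 over 4 ratios), with a range of -0.37 to -0.29 over fits that each lacked 1 library. K14-Cre+ replicate 3, which stood apart in the levels of both genes, was inside the pattern here. The Itga3 to Itgb1 ratio was 0.366, 0.422 and 0.705 in K14-Cre+ replicates 1, 2 and 3, against 0.470, 0.483 and 0.456 in K14-Cre- replicates 1, 2 and 3, so K14-Cre+ libraries lay on both sides of the narrow K14-Cre- range (exact permutation p = 1). Its difference was 0.03 and turned to -0.26 without K14-Cre+ replicate 3. The Lama3 to Lamb3 ratio averaged 0.389 ± 0.0474 in K14-Cre+ and 0.394 ± 0.0249 in K14-Cre- (SD, n = 3 each, exact permutation p = 0.8). The Dst to Plec ratio averaged 0.624 ± 0.0887 in K14-Cre+ and 0.610 ± 0.115 in K14-Cre- (SD, n = 3 each, exact permutation p = 0.9).

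**Figure D4:**
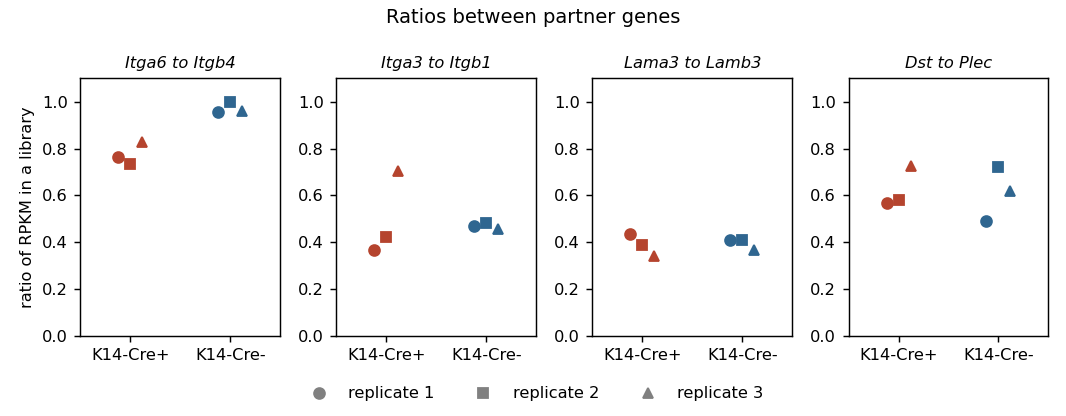
Ratio of RPKM between partner genes within each library, K14-Cre+ left and K14-Cre- right, with marker shapes for replicates 1 to 3. The Itga6 to Itgb4 ratio is 0.736 to 0.830 in K14-Cre+ and 0.956 to 0.999 in K14-Cre-, and the other 3 ratios overlap between the groups.

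The surrounding adhesion genes were followed in 5 lists with 62 genes, all of them tested. By edgeR 0 of 62 passed the threshold, against 0.515% of all genes, and limma-voom called 0, against 0.425%. DESeq2 called 6, against 5.46% of all genes, and 14 had an unadjusted p under 0.05, against 18.8%. The 14 were 5 higher and 9 lower in K14-Cre+ cells, where 10.3% of all genes were higher and 8.48% lower at that p. In the list of other basement membrane genes edgeR and limma-voom called 0 of 18 and DESeq2 called 2, against 5.46% of all genes. The median was -0.16, and 4 had an unadjusted p under 0.05, all lower, where 8.48% of all genes were lower at that p. Those 4 were the collagen IV chain genes Col4a6 and Col4a5 and the Fraser complex genes Frem1 and Fras1, whose proteins lie in the epidermal basement membrane. Col4a6 had 36.1, 29.6 and 31.5 CPM in K14-Cre+ replicates 1, 2 and 3, against 43.9, 41.6 and 40.4 CPM in K14-Cre- replicates 1, 2 and 3 (log2 fold change -0.37, edgeR adjusted p = 0.132). Frem1 had 18.3, 14.1 and 10.03 CPM in K14-Cre+ replicates 1, 2 and 3, against 21.98, 23.7 and 24.7 CPM in K14-Cre- replicates 1, 2 and 3 (log2 fold change -0.72, edgeR adjusted p = 0.152). Fras1 and Col4a5 had log2 fold changes of -0.35 and -0.31 (edgeR adjusted p = 0.176 and 0.204), and all 4 genes, chosen by their p, had groups that did not overlap. They were the 4 of 18 genes in the list whose K14-Cre+ libraries were all lower, and none was higher throughout, where 13.8% of all genes were lower and 14.1% higher in that way.

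Of 13 other integrins and integrin partners, 0 passed the threshold by edgeR and 0 by limma-voom, with a median of -0.0098. DESeq2 called 3, against 5.46% of all genes, and 5 had an unadjusted p under 0.05, against 18.8%. Itgav, the alpha v subunit gene of receptors for vitronectin and fibronectin, had 66.9, 59.4 and 56.7 CPM in K14-Cre+ replicates 1, 2 and 3, against 46.9, 48.0 and 46.8 CPM in K14-Cre- replicates 1, 2 and 3. All K14-Cre+ libraries were above all K14-Cre- libraries, as for 14.1% of all genes (log2 fold change 0.37, edgeR adjusted p = 0.101). Itgav passed without K14-Cre+ replicate 3 (0.42, edgeR adjusted p = 0.0320), where 2.65% of all genes did. Cd151, a tetraspanin that associates with integrins alpha 3 beta 1 and alpha 6 beta 4, had 57.0, 56.4 and 50.2 CPM in K14-Cre+ replicates 1, 2 and 3, against 68.7, 65.0 and 66.9 CPM in K14-Cre- replicates 1, 2 and 3. It was lower in every K14-Cre+ library than in any K14-Cre- library, as for 13.8% of all genes (log2 fold change -0.29, edgeR adjusted p = 0.134). The tetraspanin gene Cd9 had -0.23 (edgeR adjusted p = 0.183). The alpha 9 subunit gene Itga9 had 0.68 (edgeR adjusted p = 0.187), and 0.86 without K14-Cre+ replicate 3 (edgeR adjusted p = 0.0401).

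Of 7 genes of basal keratins and of proteins that link plaques to filaments, 0 passed the threshold by edgeR and 0 by limma-voom. DESeq2 called 1, against 5.46% of all genes, and 3 had an unadjusted p under 0.05, against 18.8%. Krt5 and Krt14, whose keratins attach to the hemidesmosome, had log2 fold changes of -0.10 and 0.06. Krt15, a keratin of basal and hair follicle bulge cells, had 926, 941 and 1236 CPM in K14-Cre+ replicates 1, 2 and 3, against 2193, 1764 and 1915 CPM in K14-Cre- replicates 1, 2 and 3. It had the largest difference of the 5 lists (log2 fold change -0.92, edgeR adjusted p = 0.0572), and it passed under 5 of the 13 alternatives, among them sex as a covariate (edgeR adjusted p = 0.0428) and leaving out K14-Cre+ replicate 3 (edgeR adjusted p = 0.00427). The plakin genes Ppl and Evpl, whose products are found in desmosomes and the cornified envelope, had 0.60 and 0.36 (edgeR adjusted p = 0.219 and 0.231). Macf1, a relative of Dst that links actin and microtubules, had 0.19 (edgeR adjusted p = 0.331).

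Of 17 focal adhesion genes, 0 passed by edgeR, and DESeq2 and limma-voom called 0, with a median of -0.025. An unadjusted p under 0.05 was found for 0, against 18.8% of all genes. The 4 smallest p-values were those of the actin crosslinker gene Actn1 (-0.20), the kinase gene Src (-0.17), the tensin gene Tns1 (-0.32) and the adaptor gene Bcar1 (0.14), with edgeR adjusted p from 0.291 to 0.403. Of 7 genes of enzymes that process laminin or shed the collagen XVII ectodomain, 0 passed by edgeR, and DESeq2 and limma-voom called 0. An unadjusted p under 0.05 was found for 2, against 18.8% of all genes. The tolloid-like protease gene Tll1 had -0.35 and the sheddase gene Adam9 had 0.26 on the log2 scale (edgeR adjusted p = 0.193 and 0.228). Furin had 0.39, with 278, 304 and 475 CPM in K14-Cre+ replicates 1, 2 and 3, against 266, 275 and 266 CPM in K14-Cre- replicates 1, 2 and 3, and Adam10, the other sheddase named by rule, had -0.08.

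**Figure D5:**
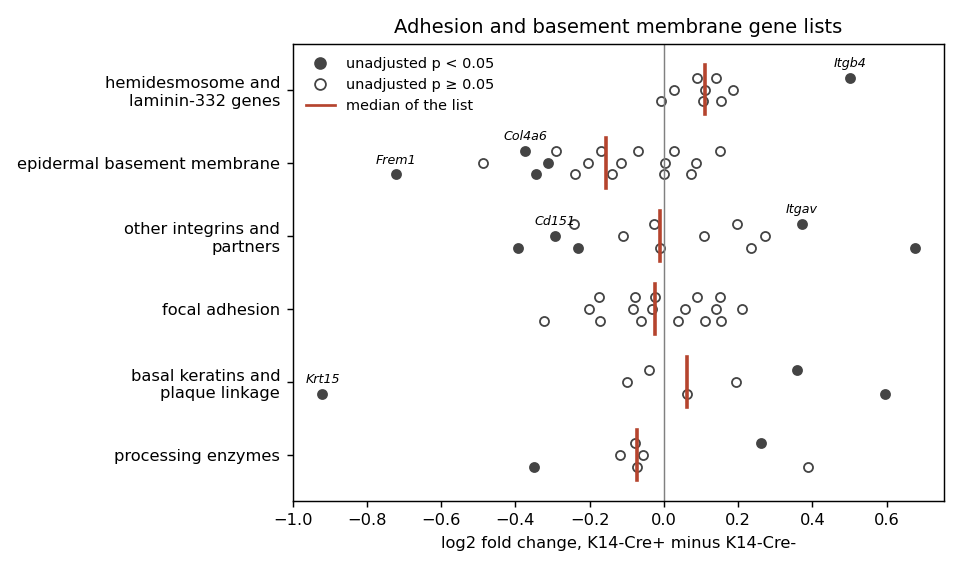
Log2 fold changes, K14-Cre+ minus K14-Cre-, of the 9 genes (top row) and of the 62 genes in 5 related lists, one point per gene, filled where the unadjusted edgeR p was under 0.05, with the median of each list as a bar and names where it was under 0.01. Krt15 (-0.92) and Frem1 (-0.72) lie farthest to the left, and Itgb4 (0.50) is apart from the other members.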

How the data were processed

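What the authors deposited is a table of raw counts for 6 libraries, not normalized, with exon coordinates and summed exon length for each gene, per the file headers. The submitters' processing notes name GSNAP for alignment, featureCounts for counting and the build mm10; the sources used here give no version, strand setting or handling of shared reads. Symbols were matched by identifier for 37607 of 38924 genes.

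Groups came from the Cre genotype label, and replicate numbers follow accession order and pair nothing. Genes were kept by filterByExpr (minimum count 10), scaled by TMM and tested with the two-sided quasi-likelihood test of edgeR 4.0.16 (R 4.3.3) without covariates, with Benjamini-Hochberg adjustment over all 15525 genes and a threshold of 0.05. Fold changes are K14-Cre+ minus K14-Cre- on the log2 scale, with SE and intervals from that fit. A floor of 3 counts was 0.0922 to 0.143 CPM, and floors cover counting error only. The fits were also run on simulated counts with planted changes. That simulation held no outlying library and no sex imbalance, so it does not bear on those features of the data.

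Members and lists were chosen with earlier results of these data known. All members were named, with up to 4 genes per list by smallest p, and the 5 genes nearest to Itga6 among those of at least 10 CPM. Alternatives were DESeq2 size factors, total count scaling, DESeq2 1.42.0, limma-voom (limma 3.58.1), 2 other filters (1 count, mean of 1 CPM), sex as a covariate read from Xist and Y-linked genes, and leaving out each library. Trdc, a T cell marker, was not analysed here, and some other genes of the lists are not reported here.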

Additional observations from a re-analysis of the deposited data

How the results depend on the processing

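Of the 9 genes, edgeR called 0, DESeq2 called 1 and leaving out 1 library gave 0 to 1, the called gene being Itgb4 in both cases. Over all genes, edgeR called 80, against 41 under total count scaling, 847 by DESeq2, 142 without a filter, 42 with sex as a covariate and 0 to 422 when 1 library was left out. It called 0 without K14-Cre- replicate 1 or 2, 1 without K14-Cre- replicate 3, and 7, 25 and 422 without K14-Cre+ replicates 2, 1 and 3. Of the 62 genes in the related lists it called 0, against 1 under total count scaling, 6 by DESeq2, 1 without a filter, 1 with sex as a covariate and 0 to 3 when 1 library was left out; Krt15 was among the genes called in each setting that called any. The cause of these shifts was not tested. Itgb4, Itga6 and Itgb1 kept their sign in all 13 alternatives, Itgb1 at values as low as 0.0061; with 1 library left out they ran from 0.40 to 0.57, from 0.03 to 0.29 and from 0.0061 to 0.22. Signs of small fold changes turned for Lama3 with DESeq2 size factors (0.0018) and the DESeq2 test (0.0019), and under total count scaling for Col17a1 (-0.035), Plec (-0.011) and Lamb3 (-0.096). With 1 library left out, the log2 fold change ran from -0.048 to 0.054 for Lama3, from -0.034 to 0.23 for Itga3, from -0.037 to 0.17 for Col17a1, from -0.032 to 0.29 for Dst and from -0.107 to 0.0943 for Lamb3. The difference in log2 ratio then ran from -0.26 to 0.22 for Itga3 to Itgb1, from -0.113 to 0.0631 for Lama3 to Lamb3 and from -0.11 to 0.17 for Dst to Plec. No paired analysis was possible because the labels give no replicate numbers. With 3 libraries per group, an interval that holds zero does not show that a gene was the same in both groups.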
